A study of Mus musculus with 2 samples.

Results

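The transcripts described here encode 6 ligands of the tumour necrosis factor (TNF) superfamily, namely Tnfsf10 (TRAIL), Fasl, Tnf, Lta, Ltb and Tnfsf9 (4-1BB ligand), and 4 receptors, namely Tnfrsf1b (TNF receptor type II), Cd27, Tnfrsf9 (4-1BB) and Tnfrsf4 (OX40). They were taken by gene symbol, and all 10 were found among the 27998 listed genes. They were measured in CD45+ liver cells of adult wild-type C57BL/6 mice aged 7 to 10 weeks, sorted through 2 gates and sequenced as droplet single-cell libraries, 1 library per gate. One gate, CD122+CD49a+, selected cells without lineage antigens that carried CD122 (a chain of the interleukin-2 receptor) and CD49a (an integrin). The other, LSM, selected cells that also lacked lineage antigens and carried both Sca-1 and Mac-1. The antibodies of the lineage mix, the number of mice and any pooling are not given in the sources used here. Library and gate cannot be told apart, no p-value was possible, and every interval below is an exact 95% interval that covers counting error only.

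Ligands of this superfamily are membrane-bound or secreted trimers that cluster their receptors on the target cell. Receptors with a death domain, such as Fas and the TRAIL receptor, engage caspases through adaptor proteins, whereas receptors without one bind TRAF adaptors and activate NF-kB. In the liver, TRAIL on resident innate lymphocytes and Fas ligand on activated T and natural killer cells are known as contact-dependent killing molecules. Lymphotoxin beta guides lymphoid tissue organisation, and CD27, 4-1BB and OX40 are costimulatory receptors of lymphocytes.

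Barcodes with at least 500 detected genes were analysed. These were 1257 barcodes with 2351659 unique molecular identifiers (UMIs) and a median of 1461 UMIs in the CD122+CD49a+ library, against 3074 barcodes with 16187182 UMIs and a median of 5100.5 in the LSM library. The gate genes were read first. Levels are counts scaled to the total of the library or class (CPM). Il2rb, which encodes CD122, stood at 256 CPM in the CD122+CD49a+ library and 0.865 CPM in the LSM library, and Itga1, which encodes CD49a, at 42.1 CPM in the CD122+CD49a+ library against 1.36 CPM in the LSM library. Ly6a, a Sca-1 gene, stood at 154 CPM in the CD122+CD49a+ library and 194 CPM in the LSM library, and Itgam, the Mac-1 alpha chain, at 32.7 CPM in the CD122+CD49a+ library against 35.8 CPM in the LSM library, so the genes of the LSM gate's antigens stood at like levels in both libraries. Cd3e had a UMI in 34.0% of the CD122+CD49a+ barcodes, in a gate labelled lineage-negative. The 4 hepatocyte markers summed to 8.08 CPM in the CD122+CD49a+ library and 1.54 CPM in the LSM library, and the 4 B cell markers to 9.78 CPM, with Cd79a at 0, in the CD122+CD49a+ library and 89.8 CPM in the LSM library.

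Barcodes were placed in classes by at least 2 UMIs of a marker list that held none of the 10 genes. In the CD122+CD49a+ library the classes were 514 CD3-transcript lymphocytes without a CD8 UMI (called CD8-negative below), 108 CD8-transcript T cells, 31 innate-like lymphocytes, 77 other barcodes with lymphocyte markers, 98 Cd209a conventional dendritic-like, 88 cDC1-like and 32 nonclassical monocyte-like barcodes. In the LSM library they were 30 CD8-negative and 41 CD8-transcript lymphocytes, 461 Cd209a dendritic-like, 58 cDC1-like, 123 Ccr7 Fscn1 mature dendritic-like, 74 Cxcl9 dendritic-like, 129 plasmacytoid dendritic-like, 286 nonclassical monocyte-like, 95 basophil-like and 226 progenitor-like barcodes. A further 50 LSM barcodes met the innate lymphocyte rule, but their leading genes included Rab7b, Naaa and Ppt1 and none had a UMI of Il2rb or Ncr1, so they are left unnamed. The 28 LSM barcodes of the plasma cell rule are not described, since their leading genes included Rab7b and Naaa as well. Barcodes meeting several rules, 93 in the CD122+CD49a+ library and 1023 in the LSM library, were set apart, and no doublet caller was run. The libraries shared 2 of the analysed barcodes.

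**Figure D1:**
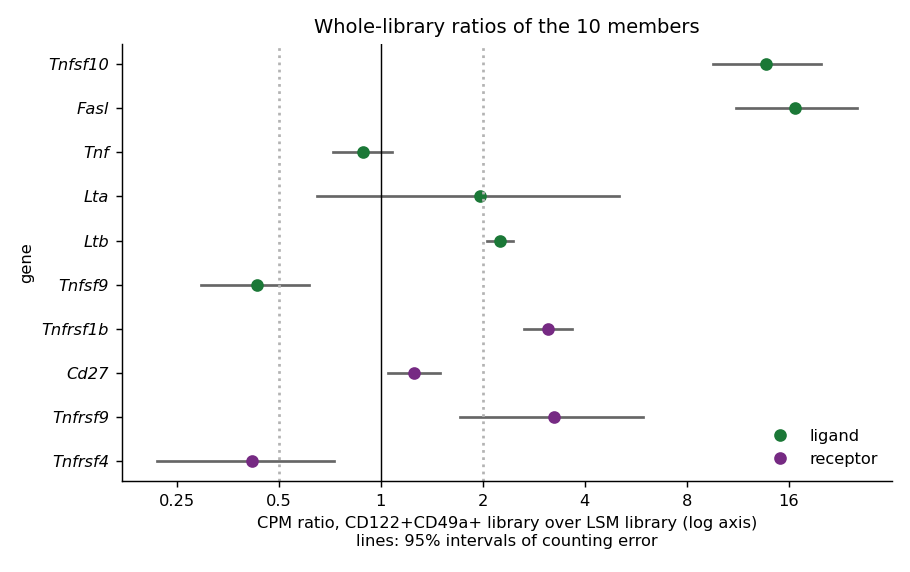
CPM ratio of each of the 10 members, CD122+CD49a+ library over LSM library, on a log axis, with 95% counting intervals as lines, ligands in green and receptors in purple. Tnfsf10 at 13.8 and Fasl at 16.7 stand far to the right, and Tnfsf9 at 0.432 and Tnfrsf4 at 0.416 lie left of 1.

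Summed over whole libraries, the death ligands set the CD122+CD49a+ gate apart from the LSM gate. Tnfsf10 had 94 UMIs (40.0 CPM) in the CD122+CD49a+ library and 47 UMIs (2.90 CPM) in the LSM library, a ratio of 13.8 (9.60 to 19.98). Fasl had 85 UMIs (36.1 CPM) in the CD122+CD49a+ library and 35 UMIs (2.16 CPM) in the LSM library, a ratio of 16.7 (11.2 to 25.5). These were the highest ratios of the 10 genes, and their intervals overlapped each other but none of the others. A ratio of summed counts does not separate more cells of a type from more RNA per cell.

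Ltb and 2 receptors were also at least 2-fold higher in the CD122+CD49a+ library. Ltb had 656 UMIs (279 CPM) in the CD122+CD49a+ library against 2002 UMIs (124 CPM) in the LSM library, a ratio of 2.26 (2.06 to 2.46). Tnfrsf1b stood at 91.0 CPM in the CD122+CD49a+ library and 29.2 CPM in the LSM library, a ratio of 3.12 (2.64 to 3.68), and Tnfrsf9 at 7.23 CPM in the CD122+CD49a+ library against 2.22 CPM in the LSM library, a ratio of 3.25 (1.71 to 5.94). In the other direction, Tnfsf9 stood at 14.0 CPM in the CD122+CD49a+ library and 32.5 CPM in the LSM library, a ratio of 0.432 (0.294 to 0.614), and Tnfrsf4 at 5.53 CPM in the CD122+CD49a+ library against 13.3 CPM in the LSM library, a ratio of 0.416 (0.218 to 0.727). Tnf, at 47.6 CPM in the CD122+CD49a+ library and 53.7 CPM in the LSM library, had an interval that included 1 (0.721 to 1.08), and so did Lta with 6 UMIs in the CD122+CD49a+ library and 21 in the LSM library (0.649 to 5.04). Cd27 had a ratio of 1.26 (1.05 to 1.49).

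Of the 10 members, 5 were at least 2-fold higher and 2 at least 2-fold lower in the CD122+CD49a+ library. Of all 11411 genes with 20 or more UMIs over both libraries, 26.4% were at least 2-fold higher and 9.67% at least 2-fold lower. The median log2 ratio was 1.07 over the members and 0.31 over all these genes. Scaling by trimmed mean of M-values moved the median of all genes to -0.13. Under it the ratio of Ltb was 1.66, that of Tnf was 0.654, and that of Cd27 turned to 0.926. Among barcodes with at least 1000 detected genes the ratios were 6.39 for Tnfsf10 and 2.70 for Fasl, and that of Ltb turned to 0.666. In the CD122+CD49a+ library this filter kept 33 of 514 CD8-negative but 59 of 88 cDC1-like barcodes, so the mix of classes changed too.

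**Figure D2:**
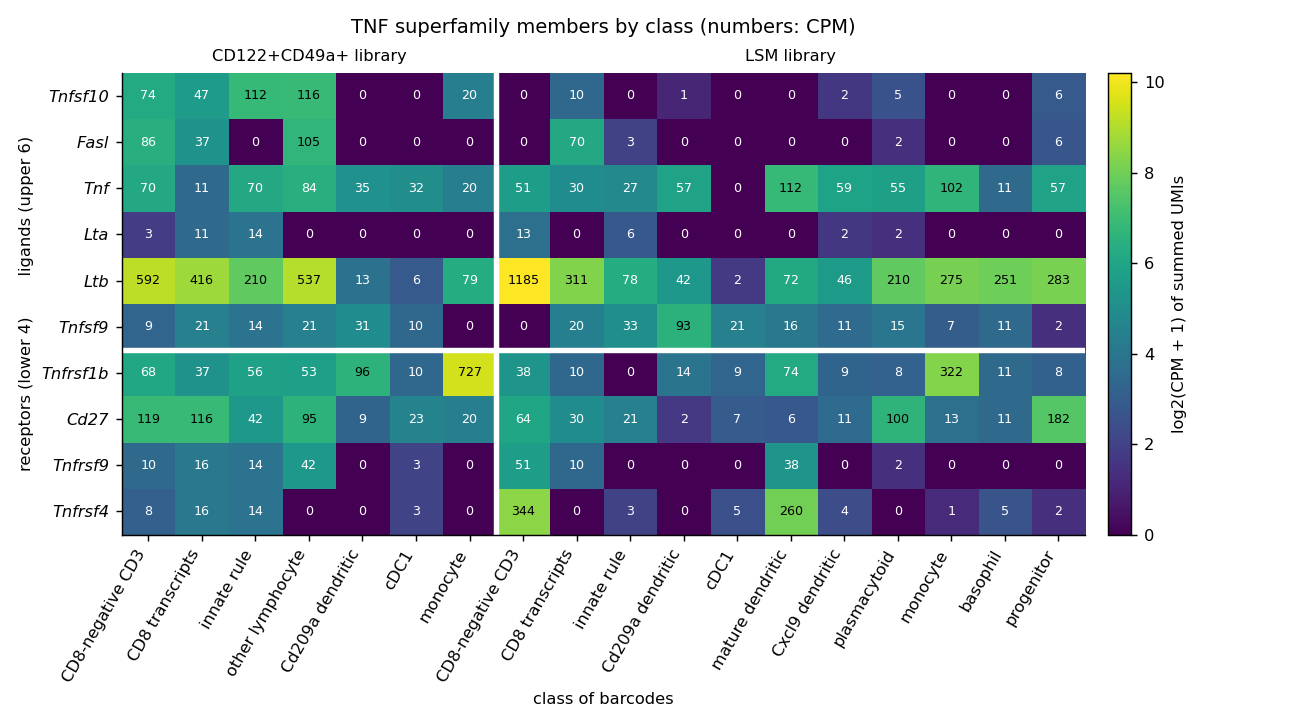
Levels of the 6 ligands and 4 receptors in CPM (numbers in the cells) in the classes of the CD122+CD49a+ library (left) and the LSM library (right), coloured by log2(CPM + 1). Tnfsf10 is seen in the lymphocyte columns of the CD122+CD49a+ library. Fasl is seen in the same columns except the innate one, and in the LSM CD8-transcript column. Both stand at or below 19.6 CPM in the dendritic and monocyte columns of both libraries, whereas Tnf is spread over most columns.

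TRAIL transcripts in the CD122+CD49a+ library lay in barcodes with lymphocyte markers. The CD8-negative class had 57 Tnfsf10 UMIs, spread over 55 of its barcodes with at most 2 in 1 barcode, a level of 74.3 CPM (56.2 to 96.2). CD8-transcript T cells stood at 47.4 CPM (21.7 to 90.01, 9 UMIs), and other lymphocyte-marker barcodes at 116 CPM (57.9 to 207, 11 UMIs). These intervals overlapped, so no order among the lymphocyte classes was detectable at this depth.

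The rule of the innate-like class required no CD3 UMI and counted Ncr1, a natural killer cell receptor gene, among its markers. Ncr1 had a UMI in 5 of the 31 barcodes. The class had 8 Tnfsf10 UMIs, a level of 112 CPM. Of these UMIs, 5 lay in 1 barcode, and without it the level was 51.5 CPM (10.6 to 150). In the dendritic classes of the same library, Tnfsf10 had 0 UMIs in 98 Cd209a dendritic-like barcodes, and 0 in 88 cDC1-like barcodes. Set at 3 counts, these zeros allow a UMI in up to 3.06% and 3.41% of such barcodes, which does not limit the share of cells that express the gene. The share of barcodes with a Tnfsf10 UMI was 10.7% (8.16 to 13.7) in the CD8-negative class at a median of 1287.5 UMIs, against 0% in the cDC1-like class at a median of 3372 UMIs. After thinning to 1000 UMIs per barcode the CD8-negative share was 8.10% of the 420 barcodes deep enough to enter. The lymphocyte classes together held 90.4% (82.6 to 95.5) of the library's Tnfsf10 UMIs and 47.8% of all its UMIs.

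Fasl lay in the same lymphocyte classes except the innate-like one. The CD8-negative class of the CD122+CD49a+ library had 66 Fasl UMIs in 55 barcodes, a level of 86.0 CPM (66.5 to 109). CD8-transcript T cells stood at 36.9 CPM (14.8 to 76.0, 7 UMIs), and other lymphocyte-marker barcodes at 105 CPM (50.5 to 194, 10 UMIs). The 31 innate-like barcodes held no Fasl UMI, which at 3 counts allows a UMI in up to 9.68% of them and again sets no limit on expressing cells. With the 0 set at that floor the level of the class was at least 2.05-fold lower than in the CD8-negative class, with an exact lower limit of 1.62. The Cd209a dendritic-like, cDC1-like and monocyte-like classes of the CD122+CD49a+ library held 0 Fasl UMIs too. The lymphocyte classes together held 97.6% (91.8 to 99.7) of the library's Fasl UMIs.

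Taken against the Cd209a, cDC1 and monocyte classes of their own library together, the 622 CD3-transcript lymphocytes of the CD122+CD49a+ library had 68.9 CPM of Tnfsf10 (66 UMIs) against 1.70 CPM in the myeloid classes (1 UMI), a ratio of 40.6 (7.04 to 1629). With barcodes of several classes placed by most marker UMIs it was 25.6 (6.83 to 216). Fasl stood at 76.3 CPM in the lymphocytes against 0 UMIs in the myeloid classes, at least 15.0-fold higher with the same floor, with an exact lower limit of 11.9. Ltb stood at 557 CPM in these lymphocytes and 15.3 CPM in the 3 myeloid classes, a ratio of 36.5 (19.1 to 80.2), and Cd27 at 118 CPM in the lymphocytes against 16.97 CPM in the myeloid classes, a ratio of 6.96 (3.65 to 14.9). Tnf had a ratio of 1.81 (1.06 to 3.23), and the intervals of Tnfsf9, Tnfrsf9, Tnfrsf4 and Lta included 1. Tnfrsf1b ran the other way, at 61.6 CPM in the lymphocytes and 105 CPM in the myeloid classes, a ratio of 0.586 (0.403 to 0.851).

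**Figure D3:**
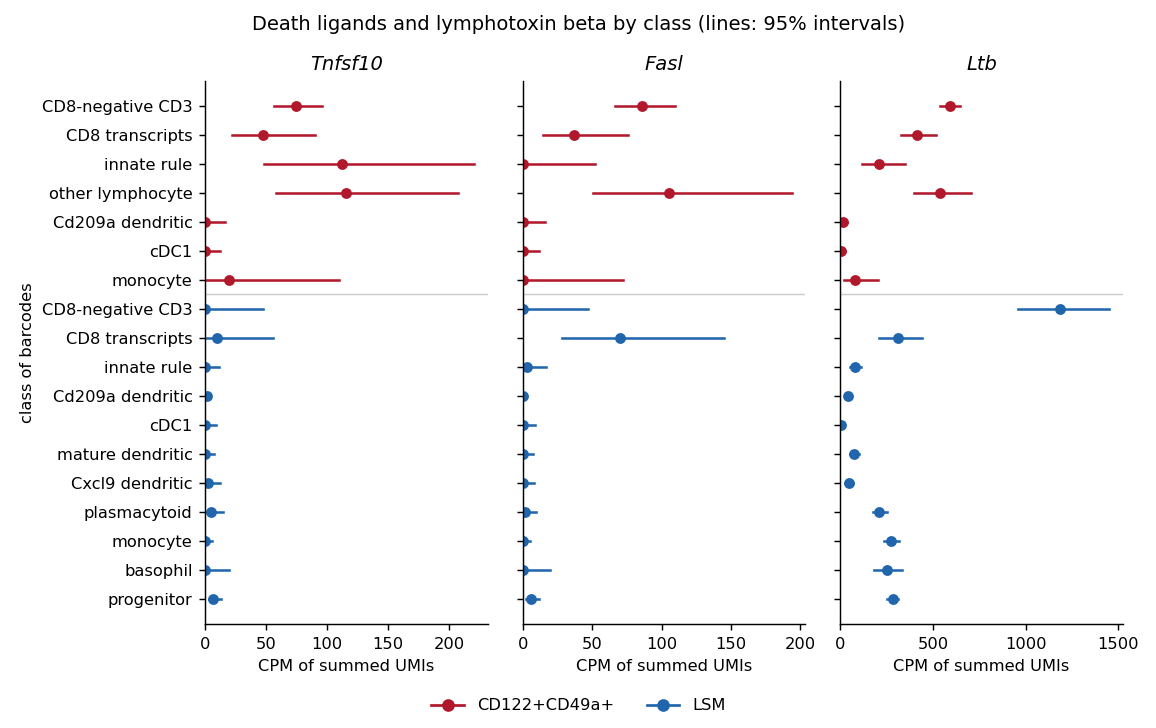
Levels of Tnfsf10, Fasl and Ltb in CPM by class, with 95% counting intervals as lines, the CD122+CD49a+ library in red (upper rows) and the LSM library in blue (lower rows). The Tnfsf10 and Fasl points of LSM classes lie at or below 10.03 CPM, except for Fasl in the 41 LSM CD8-transcript barcodes at 70.2 CPM, and Ltb is also seen in LSM progenitor-like, monocyte-like, basophil-like and plasmacytoid dendritic-like barcodes.

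In LSM lymphocytes Fasl was seen in the CD8-transcript class and not in the CD8-negative one. In CD8-negative lymphocytes Tnfsf10 stood at 74.3 CPM in the CD122+CD49a+ library against 0 UMIs in 30 barcodes of the LSM library, at least 1.94-fold higher with the floor of 3 counts and with an exact lower limit of 1.53. Fasl stood at 86.0 CPM in the CD122+CD49a+ library against 0 UMIs in the LSM library, at least 2.25-fold higher by the same floor, with an exact lower limit of 1.78. In CD8-transcript T cells Fasl stood at 36.9 CPM in the CD122+CD49a+ library and at 70.2 CPM in the LSM library, with 7 UMIs in 7 of 41 LSM barcodes, a ratio of 0.525 (0.157 to 1.76). The same LSM barcodes had 1 Tnfsf10 UMI. With so few UMIs neither class shows more than the rough size of a level.

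Outside lymphocytes, LSM progenitor-like barcodes held 8 Tnfsf10 UMIs (6.46 CPM, 2.79 to 12.7) in 7 barcodes and 7 Fasl UMIs (5.65 CPM, 2.27 to 11.6) in 7 barcodes. The 461 Cd209a dendritic-like barcodes, at a median of 5710 UMIs, had 3 Tnfsf10 UMIs and 0 Fasl UMIs, and the 286 monocyte-like barcodes had 0 of either. Barcodes that met several class rules held 29 of the 47 LSM Tnfsf10 UMIs and 17 of the 35 Fasl UMIs. When they were placed by the class with most marker UMIs, the progenitor-like class, then 380 barcodes, stood at 7.74 CPM of Tnfsf10 (17 UMIs) and 6.37 CPM of Fasl (14 UMIs).

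The promoters of both death ligands are shown because both genes were seen in the CD3-transcript classes of the CD122+CD49a+ library while lying on different chromosomes. Tnfsf10 spans positions 27317028 to 27342427 on the plus strand of chromosome 3 and Fasl positions 161780689 to 161788495 on the minus strand of chromosome 1 of GRCm38. No annotated gene overlaps either of them. The RefSeq promoter windows (GRCm38.p6, 250 bases before to 50 after the start) are chr3:27316827-27317126, plus strand and chr1:161788446-161788745, minus strand. Capitals mark matches on either strand to GGAAA, the core of NFAT sites, or to TATAAA, the TATA box.

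Tnfsf10: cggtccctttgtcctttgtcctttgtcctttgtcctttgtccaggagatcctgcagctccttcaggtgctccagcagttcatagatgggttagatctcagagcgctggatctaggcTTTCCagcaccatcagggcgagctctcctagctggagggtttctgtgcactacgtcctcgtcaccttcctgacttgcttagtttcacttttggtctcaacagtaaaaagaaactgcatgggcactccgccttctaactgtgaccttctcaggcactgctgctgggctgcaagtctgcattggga

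Fasl: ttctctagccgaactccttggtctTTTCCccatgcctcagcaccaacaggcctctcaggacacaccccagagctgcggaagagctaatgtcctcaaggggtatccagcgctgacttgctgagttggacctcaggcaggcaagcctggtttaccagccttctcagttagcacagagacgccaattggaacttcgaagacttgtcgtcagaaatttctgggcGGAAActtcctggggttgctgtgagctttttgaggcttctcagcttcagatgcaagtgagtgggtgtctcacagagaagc

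The Tnfsf10 window held 1 GGAAA match, as TTTCC at position -134 with the start at 0. The Fasl window held 2, at positions -226 and -30. Neither window held TATAAA. Of the 32851 RefSeq promoters of this length, 61.3% hold GGAAA and 13.6% hold the TATA box. A match describes these letters and is not evidence of a bound site.

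The genes whose class pattern was most like that of the death ligands were found by correlation. Over the 14 classes with at least 50 barcodes, and among 6148 genes with 200 or more UMIs, the highest Pearson correlations of log2(CPM + 5) with Tnfsf10 were those of Gimap4 (r = 0.984), Gimap8 (0.980), Zap70 (0.978), Cd28 (0.974) and Ifng (0.970). For Fasl they were Gimap4 (0.982), Zap70 (0.976), Ifng (0.973), Gimap3 (0.970) and Gimap8 (0.970). Gimap genes encode GTPases of lymphocytes, Zap70 a kinase of T cell receptor signalling, Cd28 a costimulatory receptor and Ifng interferon-gamma. The 14 points share 2 libraries and differ in depth. For both ligands, 3 CD122+CD49a+ lymphocyte classes stood at 36.9 CPM or more and the other classes at or below 6.46 CPM. The correlations thus mainly restate that contrast. The CD122+CD49a+ innate-like class, with 31 barcodes, was not among the 14. Nor were the LSM CD8-negative and CD8-transcript classes, with 30 and 41 barcodes.

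Within the CD3-transcript lymphocytes of the CD122+CD49a+ library, few barcodes showed both death ligands. Tnfsf10 had a UMI in 63 of 622 barcodes, Fasl in 62, and both in 4, where the product of the shares gives 6.28. For Tnfsf10 with Cd27 the count was 4, against a product of 10.3. At 1 or 2 UMIs per positive barcode such counts are descriptions.

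Splitting the same 622 lymphocytes by other genes, a step added after the data were seen, gave 60 ratios from 10 splitting genes and 6 members, of which 12 had an interval, not adjusted for their number, that left out 1. Tnfsf10 stood at 129 CPM in the 63 barcodes with an Itga1 UMI, the CD49a gene of the gate, and at 62.5 CPM in the 559 without, a ratio of 2.07 (1.01 to 3.91). Fasl stood at 167 CPM in the 56 barcodes with a Cd4 UMI and at 67.6 CPM in the 566 without, a ratio of 2.47 (1.27 to 4.47). All 56 were CD8-negative. The 566 include the 108 CD8-transcript barcodes, where Fasl stood at 36.9 CPM against 86.0 CPM in the CD8-negative class, so this split overlaps that of the classes. The intervals of Tnfsf10 by Cd4 (0.715 to 3.34) and of Fasl by Itga1 (0.572 to 2.64) included 1. Median depth was 1289 UMIs with and 1332 without Itga1, and 1312 with and 1326.5 without Cd4.

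Ltb was lower in the lymphocytes with a Gzma or Tyrobp UMI. It stood at 291 CPM with a UMI of Gzma, a granzyme gene, and 625 CPM without, a ratio of 0.466 (0.347 to 0.614), at median depths of 1635 UMIs with and 1286 without. Gzma was among the leading genes of the CD8-transcript class, with a UMI in 37.0% of its barcodes. Ltb stood at 416 CPM in that class and 592 CPM in the CD8-negative class, so the Gzma split overlaps that of the classes. With a UMI of Tyrobp, the adaptor of many killer cell receptors, Ltb stood at 376 CPM, against 595 CPM without, a ratio of 0.632 (0.478 to 0.824). With Cxcr6, a chemokine receptor of liver-resident lymphocytes, Ltb stood at 671 CPM and without it at 502 CPM, a ratio of 1.34 (1.12 to 1.60), whereas Cd27 stood at 81.1 CPM with Cxcr6 and 136 CPM without, a ratio of 0.598 (0.367 to 0.941). Tnf was higher with Cxcr6 (1.96, 1.12 to 3.43) and with Il2rb (1.97, 1.10 to 3.66). Within the CD8-negative class alone the Cxcr6 ratio of Tnf was 1.97 (1.11 to 3.49), whereas the interval of its Il2rb ratio included 1 (1.62, 0.897 to 3.03).

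**Figure D4:**
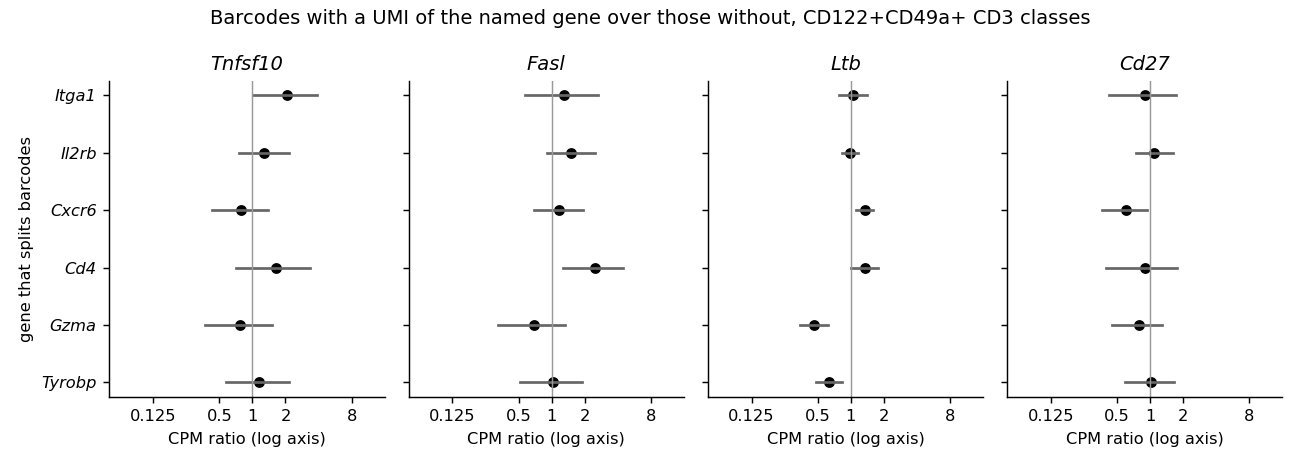
CPM ratio, on a log axis with 95% counting intervals, of Tnfsf10, Fasl, Ltb and Cd27 in CD122+CD49a+ CD3-transcript lymphocytes with a UMI of the gene on the left over those without. The Gzma and Tyrobp points of Ltb lie left of 1, at 0.466 and 0.632, and the Cd4 point of Fasl lies right of it, at 2.47.

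CD8-negative lymphocytes of the CD122+CD49a+ library had more of some ligand transcripts than CD8-transcript T cells. Median depth was 1287.5 UMIs in the CD8-negative class and 1507 UMIs in the CD8-transcript class. At such depths a CD8 cell can lack a CD8 UMI, so the CD8-negative class may hold some CD8 cells. Fasl had a CD8-negative over CD8-transcript ratio of 2.33 (1.07 to 6.03). Tnf stood at 70.4 CPM in the CD8-negative class, with 54 UMIs, and at 10.5 CPM in the CD8-transcript class, with 2 UMIs, a ratio of 6.68 (1.76 to 56.5). With barcodes of several classes placed by most marker UMIs, Tnf stood at 68.7 CPM in the CD8-negative class and 20.4 CPM (4 UMIs) in the CD8-transcript class, a ratio of 3.36 (1.24 to 12.8). Ltb had a ratio of 1.42 (1.12 to 1.83), and Tnfsf10 one of 1.57 whose interval included 1 (0.770 to 3.599). Cd27, at 119 CPM in the CD8-negative class and 116 CPM in the CD8-transcript class, had a ratio of 1.02 (0.637 to 1.71). The intervals of Tnfrsf1b, Tnfsf9, Tnfrsf9 and Tnfrsf4 included 1, and Lta had 2 UMIs in each class.

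Complexity moved with some of these levels. In the CD8-negative class of the CD122+CD49a+ library, Fasl stood at 32.1 CPM in the 33 barcodes with at least 1000 detected genes and at 96.4 CPM in the 481 with fewer, a ratio of 0.333 (0.0879 to 0.896). Tnf had a ratio of 0.303 (0.0606 to 0.938) and Ltb one of 0.610 (0.442 to 0.824) in the same split, while the interval of Tnfsf10 included 1 (0.276 to 1.60). The part of complexity in the class differences was not tested.

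Ltb, Tnf and Lta lie side by side within 10913 bases of chromosome 17 of GRCm38, with Ltb at 35194439 to 35196320 on the plus strand, Tnf at 35199381 to 35202007 and Lta at 35203165 to 35205351 on the minus strand. Gaps of 3061 bases before Tnf and 1158 bases after it part the neighbours. Their promoters are shown for the 2 neighbours that could be read in most classes, chr17:35194257-35194556, plus strand and chr17:35201958-35202257, minus strand, with capitals as above.

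Ltb: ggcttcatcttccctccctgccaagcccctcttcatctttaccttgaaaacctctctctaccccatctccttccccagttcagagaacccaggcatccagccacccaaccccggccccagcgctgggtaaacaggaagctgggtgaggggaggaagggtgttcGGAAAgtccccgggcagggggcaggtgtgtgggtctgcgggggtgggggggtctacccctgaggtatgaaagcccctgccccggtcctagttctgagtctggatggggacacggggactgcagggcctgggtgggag

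Tnf: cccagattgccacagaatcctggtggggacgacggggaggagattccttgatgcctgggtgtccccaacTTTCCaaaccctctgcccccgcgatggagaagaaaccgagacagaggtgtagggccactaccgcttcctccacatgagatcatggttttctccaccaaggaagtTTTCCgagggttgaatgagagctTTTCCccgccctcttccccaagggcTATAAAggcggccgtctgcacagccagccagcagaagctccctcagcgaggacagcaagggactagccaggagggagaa

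The Ltb window held GGAAA at position -87 and no TATAAA. The Tnf window held TATAAA at position -29 and GGAAA, as TTTCC, at positions -181, -77 and -54. The motifs did not overlap.

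These neighbours differed in where their transcripts were found. Ltb, which anchors lymphotoxin in the membrane, had a UMI in 277 of 514 CD8-negative barcodes of the CD122+CD49a+ library, 53.9% before and 43.3% after thinning, at 592 CPM (538 to 649). CD8-transcript T cells stood at 416 CPM (330 to 519), innate-like barcodes at 210.2 CPM (118 to 347) and cDC1-like barcodes at 6.47 CPM with 2 UMIs. Of the 15 UMIs in innate-like barcodes, 6 lay in 1, without which the level was 128 CPM.

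In the LSM library Ltb reached beyond lymphocytes. CD8-negative lymphocytes stood at 592 CPM in the CD122+CD49a+ library and at 1185 CPM in the LSM library (93 UMIs in 25 of 30 barcodes, 20 of them in 1 barcode). The ratio in that class was 0.499 (0.399 to 0.631), opposite in direction to the whole-library ratio. LSM progenitor-like barcodes stood at 283 CPM (254 to 314), monocyte-like at 275 CPM (238 to 316), basophil-like at 251 CPM (184 to 334) and plasmacytoid dendritic-like at 209.98 CPM (175 to 250), with overlapping intervals between neighbours in this order. Cd209a dendritic-like barcodes stood at 42.1 CPM and cDC1-like barcodes at 2.296 CPM, with 1 UMI. In monocyte-like barcodes Ltb stood at 78.6 CPM (4 UMIs) in the CD122+CD49a+ library and 275 CPM in the LSM library, a ratio of 0.286 (0.0772 to 0.744).

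Tnf, the founding cytokine of the family, was spread over most classes. LSM mature dendritic-like barcodes stood at 112 CPM (84.7 to 146) and LSM monocyte-like barcodes at 102 CPM (79.8 to 128), and neighbours in the order down to 34.9 CPM in CD122+CD49a+ Cd209a dendritic-like barcodes had overlapping intervals. Classes further apart in the order could still differ. The intervals of LSM Cd209a dendritic-like (48.7 to 67.2), progenitor-like (44.8 to 72.3) and plasmacytoid dendritic-like barcodes (37.9 to 77.2) lay below those of LSM mature dendritic-like and monocyte-like barcodes. For progenitor-like barcodes this rests on leaving out barcodes of several classes. With them placed, the progenitor-like interval (59.1 to 81.6) overlapped those of mature dendritic-like (from 77.5) and monocyte-like barcodes (from 80.5). The Cd209a dendritic-like (49.5 to 64.4) and plasmacytoid dendritic-like intervals (39.4 to 60.6) still lay below. The cDC1-like class differed between the libraries, with 10 UMIs (32.4 CPM) in 88 CD122+CD49a+ barcodes and 0 UMIs in 58 LSM barcodes, at least 4.70-fold higher in the CD122+CD49a+ library with the floor of 3 counts and with an exact lower limit of 3.16. That zero rests on leaving out barcodes of several classes: with them placed, the class had 10 UMIs (25.6 CPM) in the CD122+CD49a+ library and 7 (8.10 CPM) in the LSM library, a ratio of 3.16 (1.09 to 9.78). Monocyte-like barcodes had 1 Tnf UMI (19.6 CPM) in the CD122+CD49a+ library and 73 (102 CPM) in the LSM library, and the interval of their ratio included 1 (0.00482 to 1.11). Lta, which forms lymphotoxin with Ltb, had at most 2 UMIs in any named class of either library and could not be ranked. Of its 21 LSM UMIs, 14 lay in barcodes of several classes, with 4 of them in 1 barcode. With these barcodes placed, the LSM Cxcl9 dendritic-like class, then 225 barcodes, had 10 Lta UMIs (6.63 CPM, 3.18 to 12.2).

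Tnfsf9, the ligand of 4-1BB, stood highest in Cd209a dendritic-like barcodes of the LSM library. They stood at 92.8 CPM (81.6 to 105), with 249 UMIs in 140 of 461 barcodes, apart from every other class with at least 50 barcodes. The 526 Tnfsf9 UMIs of the LSM library also lay in barcodes of several classes (161) and of none (62). In the CD122+CD49a+ library the lymphocyte classes together held 14 of 33. The share of LSM Cd209a dendritic-like barcodes with a UMI was 30.4%, or 9.76% after thinning, against 1.75% of monocyte-like barcodes, 1.42% after thinning. The class stood at 30.5 CPM (7 UMIs) in the CD122+CD49a+ library and 92.8 CPM in the LSM library, a ratio of 0.329 (0.131 to 0.687). The gene spans positions 57105325 to 57107757 on the plus strand of chromosome 17 and overlaps Gm11110, a long noncoding gene on the minus strand. The labels do not state the strand setting of the counting, so reads of the overlap cannot be told apart.

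**Figure D5:**
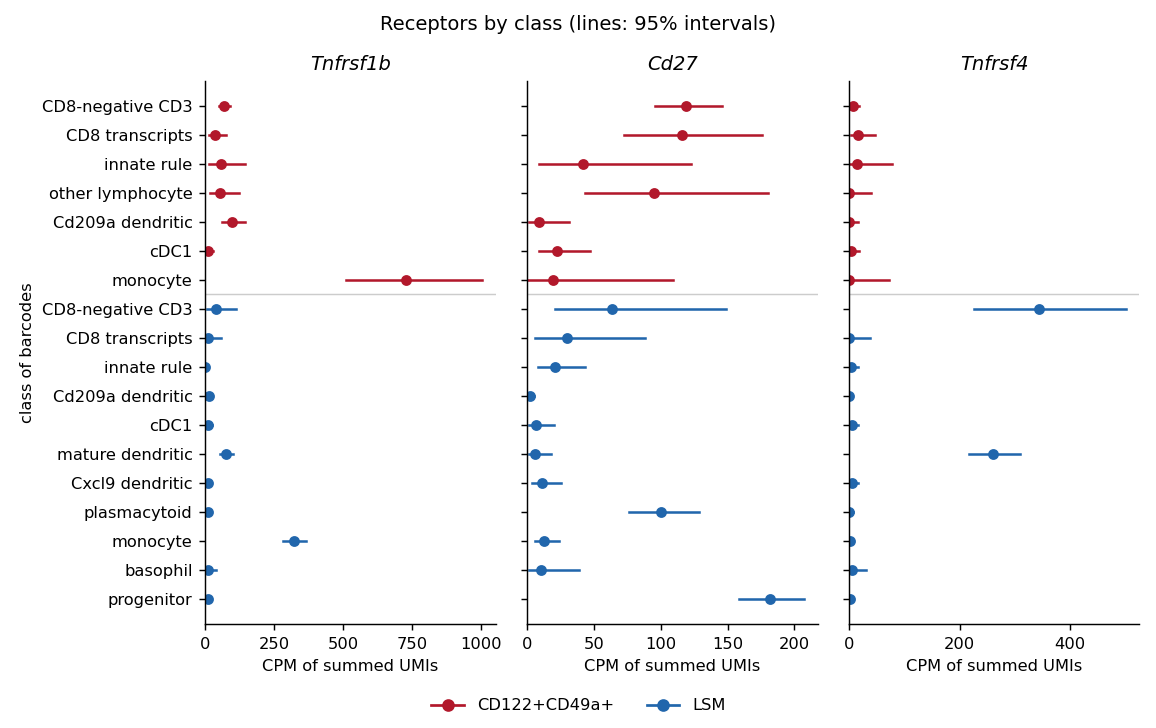
Levels of Tnfrsf1b, Cd27 and Tnfrsf4 in CPM by class, with 95% counting intervals as lines, the CD122+CD49a+ library in red (upper rows) and the LSM library in blue (lower rows). Tnfrsf1b peaks in monocyte-like barcodes of both libraries. Cd27 is highest in LSM progenitor-like barcodes, then in CD122+CD49a+ lymphocytes other than innate-like ones and in LSM plasmacytoid dendritic-like barcodes. Tnfrsf4 peaks in LSM mature dendritic-like barcodes and, largely through 1 barcode, in LSM CD8-negative ones.

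Among the receptors, Tnfrsf1b, which binds TNF and lacks a death domain, stood highest in monocyte-like barcodes of both libraries among classes with at least 30 barcodes. CD122+CD49a+ monocyte-like barcodes stood at 727 CPM (37 UMIs in 18 of 32 barcodes) and LSM monocyte-like barcodes at 322 CPM (231 UMIs in 148 of 286), a ratio of 2.26 (1.55 to 3.20). Of the 37 UMIs, 11 lay in 1 barcode, without which the CD122+CD49a+ level was 539 CPM (352 to 790). Cd209a dendritic-like barcodes stood at 95.9 CPM in the CD122+CD49a+ library and 14.2 CPM in the LSM library, a ratio of 6.77 (3.81 to 11.7), and CD8-negative lymphocytes at 67.8 CPM in the CD122+CD49a+ library (52 UMIs).

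The Cd209a dendritic-like class thus held opposite library ratios for different members. Tnfrsf1b was higher in the CD122+CD49a+ library, while Tnfsf9 at 0.329 and Ltb at 0.310 (0.0631 to 0.930) were lower, and the interval of Tnf included 1 (0.258 to 1.23). With barcodes of several classes placed, the Ltb ratio was 0.528 and its interval included 1 (0.191 to 1.17). The 98 CD122+CD49a+ barcodes of this class were led by Cd209a, Mgl2, Clec10a, Ifitm6 and Wfdc17, and the 461 LSM barcodes by Cd209a, Kcne3, Clec10a, Fcor and Clec4b1. Cd209a, Clec10a and Mgl2 are the markers that set the class, and the other genes named here differed. Each list ranks genes over the rest of its own library, so it also depends on the other cells there. The median depth of the class was 2194 UMIs in the CD122+CD49a+ library and 5710 UMIs in the LSM library. The part of depth and leading genes in the ratios was not tested.

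Among classes with at least 50 barcodes, Cd27, the receptor of CD70, stood highest in LSM progenitor-like ones. CD122+CD49a+ lymphocytes other than innate-like ones and LSM plasmacytoid dendritic-like barcodes followed. The 31 CD122+CD49a+ innate-like barcodes stood at 42.0 CPM (3 UMIs). LSM progenitor-like barcodes stood at 182 CPM (159 to 207), with 225 UMIs in 135 of 226 barcodes. This interval lay apart from that of the next class in the order. It overlapped those of CD8-transcript T cells and of other lymphocyte-marker barcodes (43.4 to 180) of the CD122+CD49a+ library. Then came CD8-negative lymphocytes of the CD122+CD49a+ library at 119 CPM (95.5 to 146), their CD8-transcript counterparts at 116 CPM (72.6 to 175) and LSM plasmacytoid dendritic-like barcodes at 99.99 CPM (76.3 to 129), all with overlapping intervals. LSM Cd209a dendritic-like barcodes stood at 2.24 CPM. The 140 LSM barcodes that met both the plasmacytoid and the progenitor rule stood at 228 CPM of Cd27 (196 to 265), and their Ltb level was 359.8 CPM (318 to 405).

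Between the libraries, CD3-transcript lymphocytes had 118 CPM of Cd27 in the CD122+CD49a+ library and 44.9 CPM (8 UMIs) in the LSM library, a ratio of 2.63 (1.29 to 6.24). With barcodes of several classes placed it was 1.42, and its interval included 1 (0.851 to 2.53). In the LSM library 26.8% of the Cd27 UMIs lay in progenitor-like barcodes, which held 7.65% of all UMIs, and 52.1% in barcodes that met several rules. Cd27 spans positions 125232622 to 125237010 on the minus strand of chromosome 6, where Vamp1 overlaps it on the plus strand, with the same limit on reads of the overlap.

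Tnfrsf4 and Tnfrsf9, receptors induced on activated T cells, were also found in mature dendritic-like barcodes. Those of the LSM library had 130 Tnfrsf4 UMIs in 55 of 123 barcodes, a level of 260 CPM (217 to 309), apart from every other class with at least 50 barcodes. They had 19 Tnfrsf9 UMIs in 16 barcodes, 38.0 CPM (22.9 to 59.4), against 0 of either gene in 461 Cd209a dendritic-like barcodes of the same library. CD8-negative lymphocytes had 7.82 CPM of Tnfrsf4 in the CD122+CD49a+ library (6 UMIs) and 344 CPM in the LSM library (27 UMIs). Of these 27 LSM UMIs 19 lay in 1 barcode, without which the LSM level was 105 CPM (45.3 to 207). The 4 Tnfrsf9 UMIs of that class all lay in 1 barcode. Tnfrsf9 spans positions 150914562 to 150946102 and Tnfrsf4 positions 156013843 to 156016612, both on the plus strand of chromosome 4, and Camta1 overlaps Tnfrsf9 on the minus strand, again with that limit.

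The partners of these genes were read from a family list. Fas, the receptor of Fas ligand, stood at 8.50 CPM in the CD122+CD49a+ library and 11.7 CPM in the LSM library, a ratio whose interval included 1 (0.433 to 1.15). Within the LSM library it was seen in mature dendritic-like barcodes at 72.0 CPM (50.5 to 99.7) and in 0 of 226 progenitor-like barcodes. Tnfrsf10b, the mouse TRAIL receptor with a death domain, had 8 UMIs in the CD122+CD49a+ library and 16 in the LSM library, too few for a class order. Cd70, the ligand of CD27, had 3 UMIs in the CD122+CD49a+ library and 7 in the LSM library, and Tnfsf4, the ligand of OX40, 0 in the CD122+CD49a+ library and 5 in the LSM library.

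Of the 12 other ligands, 6 had the 20 UMIs needed and 4 were at least 2-fold higher in the CD122+CD49a+ library, with 0 lower, beside 26.4% and 9.67% of all genes tested. A gene could reach the 20 UMIs through 1 library alone. Cd40lg, the CD40 ligand of helper T cells, stood at 61.7 CPM in the CD122+CD49a+ library and 0.309 CPM in the LSM library, a ratio of 199.6 (83.6 to 624), and 134 of its 145 CD122+CD49a+ UMIs lay in the CD8-negative class. Tnfsf14, known as LIGHT, had a ratio of 6.78 (4.74 to 9.70), and Tnfsf8, the CD30 ligand, one of 2.71 (1.69 to 4.26). Of the 24 other receptors, 17 had enough UMIs, 6 were at least 2-fold higher and 4 lower, beside the same 26.4% and 9.67%. Tnfrsf18 (GITR) had a ratio of 2.69 (2.31 to 3.14) and Tnfrsf21 (death receptor 6) one of 2.65 (1.96 to 3.54). The receptors of the B cell factors BAFF and APRIL ran the other way, with ratios of 0.308 (0.225 to 0.412) for Tnfrsf13b and 0.104 (0.0336 to 0.246) for Tnfrsf13c, and with 0 Tnfrsf17 UMIs in the CD122+CD49a+ library against 533 in the LSM library.

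Of 13 adaptor and death signalling genes, all with enough UMIs, 2 were at least 2-fold higher in the CD122+CD49a+ library, Traf3 at 2.12 (1.55 to 2.87) and Traf6 at 2.35 (1.61 to 3.38). Their median log2 ratio was 0.18. Of 10 NF-kB and feedback genes, 2 were higher, Tnfaip3 (the feedback inhibitor A20) at 2.299 (1.93 to 2.73) and its partner Tnip1 at 2.16 (1.68 to 2.75), and 2 were lower, the NF-kB subunit gene Relb at 0.424 (0.334 to 0.533) and the inhibitor gene Nfkbia at 0.276 (0.249 to 0.306), with a median of 0.50. Beside the counts of both lists, 26.4% of all genes tested were at least 2-fold higher and 9.67% at least 2-fold lower. Under trimmed mean scaling these shares of all genes were 14% and 20.2%. The counts at least 2-fold higher were then 3 of 6 other ligands, 3 of 17 other receptors, 0 of 13 adaptor genes and 0 of 10 NF-kB genes. Those at least 2-fold lower were 0 of 6 other ligands, 5 of 17 other receptors and 3 of 10 NF-kB genes. Traf3, Traf6, Tnfaip3, Tnip1, Tnfrsf18 and Tnfrsf21 were thus no longer past 2-fold. Traf1, an adaptor of 4-1BB and OX40 signalling, was not past 2-fold lower at 0.671 (0.583 to 0.770) with total scaling but was with trimmed mean scaling. It stood at 1191 CPM in the LSM mature dendritic-like barcodes where Tnfrsf4 and Tnfrsf9 were found, against 99.9 CPM in LSM Cd209a dendritic-like barcodes.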

How the data were processed

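The deposited gene by barcode matrices of 1 library per gate hold raw UMI counts, whole numbers not normalised by the authors. Per the file headers, software of version 3.0.1 wrote them. Per the submitters' processing notes, the tools and build were STAR, Seurat 2.3.0 and GRCm38, whose roles are not stated. The deposited barcodes number 1655 in the CD122+CD49a+ library and 3133 in the LSM library, and the rule that selected them is not stated. Groups came from the labels. Gene positions are from GENCODE M21 of GRCm38, where 27645 of 27998 identifiers (98.7%) were found, and promoters from RefSeq, where 9 of 10 members had an entry.

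The genes, marker lists and family lists were chosen with earlier results of these data known. Barcodes with at least 500 detected genes were kept. A class needed 2 UMIs of its markers, and barcodes meeting several classes were set apart. Innate-like barcodes needed markers of natural killer cells with Tyrobp or Fcer1g and no CD3 UMI. Named genes follow a rule: the 10 members, family genes past 2-fold with 50 UMIs, and the 5 genes most correlated with Tnfsf10 or Fasl. Some genes of the lists, and the count of adaptor genes that were lower, are not reported here. Some partners (Fas, Tnfrsf10b, Cd70, Tnfsf4, Traf1), the splitting genes, the gate genes, the leading genes of classes and the splits by complexity or top barcode and the scaling of the family counts were added after values were seen.

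Counts were summed and scaled to CPM, with exact Poisson intervals for levels, exact conditional binomial intervals for ratios and Clopper-Pearson intervals for shares. A count of 0 was set at 3 counts, equal to 1.28 CPM in the CD122+CD49a+ library and 0.185 CPM in the LSM library. Whole-library calls used genes with 20 UMIs over both libraries. On counts simulated with Poisson noise for this library comparison, the true ratio lay inside the 95% interval for 96.2% of 11211 genes left as they were, for 96.0% of 100 genes changed 2-fold and for 98.0% of 100 changed 4-fold. The interval assumes such noise, so this checks the calculation only. Clustering of UMIs in single barcodes was not simulated, so coverage on the real counts is not known. Alternatives were scaling by edgeR 4.0.16 trimmed mean of M-values or by DESeq2 1.42.0 size factors (both with R 4.3.3), other barcode filters, class rules and thinning depths. Python 3.11.15 with numpy 2.4.6, scipy 1.17.1 and pandas 2.3.3 was used.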

Additional observations from a re-analysis of the deposited data

Results flagged for a closer look

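Fasl ran in opposite directions in the lymphocyte classes of the libraries. The CD8-negative over CD8-transcript ratio was 2.33 in the CD122+CD49a+ library, whereas in the LSM library the CD8-negative class had 0 Fasl UMIs and the CD8-transcript class 7, at least 1.84-fold lower in the CD8-negative class with the floor of 3 counts, with an exact lower limit of 1.13. The difference between the libraries was not tested.

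Members were also read in the barcodes with fewer than 500 detected genes, which no comparison used. In the 398 such barcodes of the CD122+CD49a+ library, at a median of 666 UMIs, the levels above the floor of 3 counts (10.7 CPM) were 67.7 CPM for Tnfsf10, 57.0 CPM for Fasl, 71.3 CPM for Tnf, 353 CPM for Ltb, 28.5 CPM for Tnfsf9, 139 CPM for Tnfrsf1b and 118 CPM for Cd27. In the 59 such barcodes of the LSM library they were 309 CPM for Tnf, from 12 UMIs, and 103 CPM each for Ltb and Tnfrsf1b, from 4 UMIs each, with a floor of 77.1 CPM.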

How the results depend on the processing

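No paired analysis was possible because each gate had 1 library. Under the alternatives 159 values stayed within the interval or the 1.5-fold range of the value reported, 44 moved out of it and 1 that was past 2-fold turned to the other side of 1. Of the 44, the Cd27 ratio, not past 2-fold at 1.26, also turned, to 0.926 under trimmed mean scaling, 0.924 under size factors and 0.590 in barcodes with at least 1000 genes, where Lta had 0 UMIs in the CD122+CD49a+ library. Keeping barcodes with at least 1000 genes turned the Ltb ratio to 0.666. The Tnfsf10 ratio was then 6.39 and the Fasl ratio 2.70, and in CD8-negative lymphocytes of the CD122+CD49a+ library Tnfsf10 stood at 56.2 CPM and Fasl at 32.1 CPM. That class then held 33 of its 514 barcodes, whereas the cDC1-like class of the same library held 59 of 88. At 4-fold, 2 members were higher (all genes 5.73%) and 0 lower (2.68%). Under trimmed mean scaling 14% of all genes were at least 2-fold higher and 20.2% lower, against 26.4% and 9.67%. The cause of these shifts was not tested. Depth limits the classes of 50 or fewer barcodes, where single UMIs move a level.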
